A study of Mus musculus with 18 samples.

Results

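The genes described here encode nuclear subunits of respiratory complexes I, II and III and of the ATP synthase (complex V). They were taken by symbol (Nduf followed by a, b, c, s or v and a number, Sdha to Sdhd, symbols starting with Uqcr or Atp5) from transcript clusters assigned to 1 gene, with the cluster of highest mean signal kept for each gene and pseudogene symbols left out. This gave 61 of the 22180 genes with a cluster of their own, and all 61 were among the 15526 genes bright enough to be tested. By complex they are 31 genes of complex I (6 catalytic core and 25 accessory subunits), 4 of complex II, 7 of complex III and 17 of complex V, together with Ndufa4, now assigned to complex IV, and its paralogue Ndufa4l2. Genes that match the same symbols but had no cluster of their own were not analysed here, among them Ndufb2, Ndufb4, Ndufb4b, Ndufb4c, Ndufs6 and Uqcr10, which stood only in rows shared by several genes.

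RNA came from isolated, handpicked pancreatic islets and was hybridised to Affymetrix Mouse Gene ST arrays. In the larger of the 2 deposited tables, 16 arrays formed 8 groups of 2: C57BL/KsJ db/db mice at 6 and 16 weeks, C57BL/6J ob/ob mice at 6 and 16 weeks, and lean control mice of each strain at the same ages. The db/db mutation disrupts the leptin receptor and the ob/ob mutation leptin itself, and both are germline mutations, present in every tissue. A smaller table held 1 further db/db array and 1 further lean KsJ array, both of 16 weeks and of another array design, called replicate 3 here. The labels give neither sex nor whether an array held RNA of 1 mouse or of a pool. What the p-values measure is thus the spread among these particular samples, and having 2 arrays a group limits their precision.

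Electrons from NADH enter the respiratory chain at complex I and those from succinate at complex II. Both reach complex III through ubiquinone and then complex IV through cytochrome c, and the proton gradient built on the way drives ATP synthesis by complex V. In beta cells the ATP made in this way closes ATP-sensitive potassium channels, so respiration couples glucose metabolism to insulin release. Most subunits are encoded in the nucleus, and the rest by mitochondrial DNA. None of the 13 mitochondrially encoded subunits had a cluster assigned to it alone in the annotation used, so the results concern the nuclear part alone.

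Islet hormones were abundant on each array, with Ins2 between 11.60 and 12.20 on the log2 scale, and the mean of 8 beta cell genes lay between 10.59 and 11.45. In 16-week db/db islets that mean was 10.59 and 10.77, against 11.10 and 10.64 in lean KsJ islets. The glucose transporter gene Slc2a2 was at 11.03 and 11.30 there, against 12.60 and 11.83 in lean KsJ islets. The transcription factor gene Mafa was at 8.24 and 8.16, against 9.75 and 9.17. Ins2 and Iapp ran the other way, with both db/db arrays above both lean arrays. Ins2 was at 12.01 and 11.97, against 11.60 and 11.90, and Iapp at 12.72 and 12.70, against 12.49 and 12.01. The other genes of this list overlapped between the groups. Exocrine and intestinal markers varied more. The mean of 6 acinar genes was 13.15 on lean KsJ 16-week replicate 2 and 10.70 on its partner. The mean of 8 enterocyte genes was 11.09 on lean 6J 6-week replicate 2, against 4.69 on its partner, and 9.44 on db/db 16-week replicate 2. Xist, a marker of female cells, was below 5 on 5 arrays: the 6-week ob/ob pair, lean 6J replicate 1 of 6 weeks, and lean KsJ replicate 1 of each age. Uty, a gene of the Y chromosome, was between 7.25 and 7.86 on these 5 arrays and between 2.17 and 3.60 on the others. By these markers both lean KsJ groups and the 6-week lean 6J group paired a male with a female array. Among the 16 arrays, 1 code in the sample titles marks all KsJ arrays and another all 6J arrays, so strain and that code cannot be told apart. Signals of different clusters depend on their probes and are not compared between genes.

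The median change of the subunit genes lay above that of all genes in each comparison of obese with lean islets, furthest in 16-week ob/ob islets, but the differences were small and nearly all missed the test over all genes. The median log2 change of the 61 subunits was 0.34 in ob/ob against lean 6J islets at 16 weeks, where the median of all genes tested was -0.03. It was 0.22 in db/db against lean KsJ islets at 6 weeks (all genes -0.02), 0.26 in db/db against lean KsJ islets at 16 weeks (all genes 0.18) and 0.07 in ob/ob against lean 6J islets at 6 weeks (all genes -0.00). That last median rested on single arrays, at -0.06 without ob/ob replicate 1 and 0.24 without replicate 2. Among genes with a mean signal of at least 8, 31 of them subunits and 2979 in all, the subunit median was 0.22 in 6-week db/db islets (all bright genes -0.06), 0.26 in 16-week db/db islets (0.27), 0.10 in 6-week ob/ob islets (0.01) and 0.35 in 16-week ob/ob islets (-0.02). The subunits of 16-week db/db islets thus did not lie above other bright genes. The test was limma's moderated test with Benjamini-Hochberg adjustment over the 15526 genes, and the word called is used for an adjusted p under 0.05. Each SE and p rests on 1 variance per gene pooled over the 8 groups, and so also on arrays outside the comparison. One subunit gene was called in the 4 comparisons, Ndufa4l2 in 16-week db/db islets, where 5.80% of all genes were called. In whole islets, more cells of a type and more RNA per cell cannot be told apart.

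**Figure D1:**
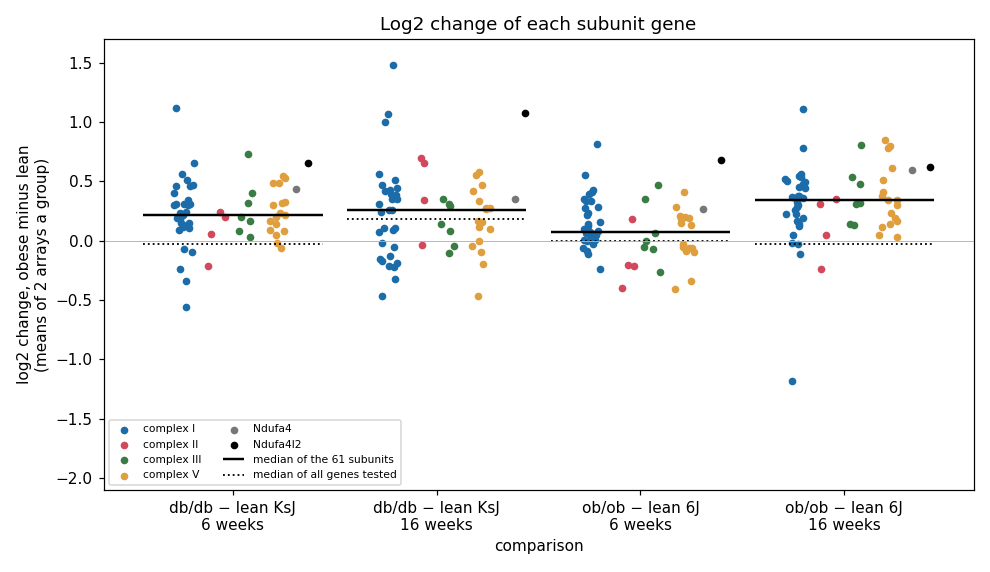
Log2 change of each of the 61 subunit genes (vertical axis, mean of 2 obese arrays minus mean of 2 lean arrays) in the 4 comparisons (horizontal axis), coloured by complex. Solid lines mark the median of the subunits and dotted lines the median of all 15526 genes tested: the 2 lie furthest apart in 16-week ob/ob islets (0.34 and -0.03) and close together in 16-week db/db islets (0.26 and 0.18).

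No array was used in more than 1 of the 4 comparisons. In all 4 of them 27 subunit genes (44.3%) had a change above 0, as had 17.8% of all genes tested. Sdha and the dim Ndufs5 had a change below 0 in all 4, as had 11.4% of all genes. For 4 subunit genes (6.56%), Ndufa1, Ndufa2, Ndufa4l2 and Ndufc2, both obese arrays lay above both lean arrays in all 4 comparisons, as they did for 3.31% of all genes. For 0 subunit genes both obese arrays lay below both lean arrays in all 4, against 1.09% of all genes. These last counts come from an ordering of arrays, with no test.

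Among the accessory subunits of complex I, Ndufa1 had the most positive change of the 61 genes in each of the 4 comparisons. Its product is a small membrane protein needed for complex I assembly, and its gene lies on the X chromosome. Its log2 signal was 9.57 and 9.71 in db/db islets of 16 weeks, against 7.78 and 8.54 in lean KsJ islets. At 6 weeks it was 9.03 and 10.15 in db/db islets, against 8.63 and 8.33 in lean KsJ islets. All 4 db/db arrays thus lay above all 4 lean KsJ arrays, by a wide margin at 16 weeks. In ob/ob islets it was 9.78 and 8.72 at 6 weeks, against 8.38 and 8.50 in lean 6J islets. At 16 weeks it was 9.72 and 9.46 in ob/ob islets, against 8.63 and 8.33 in lean 6J islets. The change was 1.48 ± 0.40 in 16-week db/db islets (SE, n = 2 arrays a group, limma adjusted p = 0.0552), 2.80-fold on the linear scale, and missed the threshold. It was 1.11 ± 0.40 in 6-week db/db islets (adjusted p = 0.539), 0.81 ± 0.40 in 6-week ob/ob islets (adjusted p = 0.791) and 1.11 ± 0.40 in 16-week ob/ob islets (adjusted p = 0.205).

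Because Ndufa1 is X-linked, the Xist signals of the same arrays are given beside it. Xist was 8.74 and 8.46 in db/db islets of 6 weeks, against 2.63 and 9.40 in lean KsJ islets, and 9.31 and 8.57 in db/db islets of 16 weeks, against 3.24 and 8.90 in lean KsJ islets. In 6-week ob/ob islets it was 3.48 and 2.80, against 4.27 and 9.46 in lean 6J islets. At 16 weeks it was 8.62 and 8.60 in ob/ob islets, against 9.52 and 9.60 in lean 6J islets, high on all 4 arrays but with both ob/ob arrays below both lean arrays. With Xist as a covariate the Ndufa1 change was 1.40 in 16-week db/db islets and 1.14 in 16-week ob/ob islets. Beyond these values the part of Xist in the Ndufa1 changes was not tested. At 6 weeks they varied with single arrays: without db/db replicate 2 the 6-week db/db change was 0.55, and without replicate 1 it was 1.67. In 6-week ob/ob islets it was 0.28 without ob/ob replicate 1 and 1.34 without replicate 2. The other X-linked subunit gene, Ndufb11, did not follow the same order of arrays. It differed by -0.34 ± 0.32 in 6-week db/db islets with overlapping arrays, and without db/db replicate 1 its sign turned (0.10). It was at 6.36 and 5.46 in 16-week db/db islets, against 5.55 and 5.15 in lean KsJ islets (0.56). In 6-week ob/ob islets both obese arrays lay above, with 5.78 and 5.51, against 5.36 and 5.15 on the lean 6J arrays (0.39), and in 16-week ob/ob islets the change was 0.14 with overlapping arrays. None of the 4 passed. The 16-week db/db value was 0.11 without db/db replicate 1 and 1.01 without replicate 2, and the 16-week ob/ob value was 0.03 without ob/ob replicate 2.

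Ndufc2, an accessory subunit of the membrane arm, followed the same order of arrays. It was at 9.72 and 9.42 in db/db islets of 16 weeks, against 8.59 and 8.42 in lean KsJ islets. The ob/ob arrays of 16 weeks gave 9.69 and 9.37, against 8.83 and 8.68 on the lean 6J arrays. The 2 groups did not overlap in either strain, and the change was 1.07 ± 0.31 in db/db islets (adjusted p = 0.0665, limma) and 0.78 ± 0.31 in ob/ob islets (adjusted p = 0.241). At 6 weeks it was 0.66 ± 0.31 in db/db islets and 0.55 ± 0.31 in ob/ob islets. Without ob/ob 6-week replicate 1, the array with the higher signal (9.90 against 8.94 on its partner), that last value was 0.07. Ndufa2, an accessory subunit of the matrix arm, differed by less. It was at 9.02 and 8.91 in db/db islets of 16 weeks, against 8.30 and 8.60 in lean KsJ islets, and at 9.02 and 9.20 in ob/ob islets of 16 weeks, against 8.56 and 8.59 in lean 6J islets. Its changes were 0.22 and 0.51 in db/db islets of 6 and 16 weeks, and 0.23 and 0.53 in ob/ob islets of 6 and 16 weeks, none of which passed. With 1 array left out the 6-week values ran from 0.10 to 0.34 in db/db and from 0.08 to 0.38 in ob/ob islets, with the ends set by the 2 obese arrays.

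Ndufa4l2 was the only subunit gene called, in 16-week db/db islets, where 5.80% of all genes were called. Its product resembles Ndufa4 and is induced under hypoxia through the transcription factor HIF-1. In 16-week db/db islets it was at 5.17 and 5.81, against 4.43 and 4.39 in lean KsJ islets. The change of 1.08 ± 0.27 (adjusted p = 0.0449, limma), 2.11-fold, lay just inside the threshold. Over 29 alternative settings its adjusted p ran from 0.0112 to 0.484 and it was called in 9 of them, while the change stayed between 0.73 and 1.40. In the other comparisons the gene was at 5.78 and 6.15 in db/db islets of 6 weeks, against 5.39 and 5.24 in lean KsJ islets. It was at 6.28 and 5.56 in ob/ob islets of 6 weeks, against 5.41 and 5.08 in lean 6J islets, and at 5.63 and 5.88 in ob/ob islets of 16 weeks, against 5.18 and 5.09 in lean 6J islets. These changes of 0.65 ± 0.27, 0.68 ± 0.27 and 0.62 ± 0.27 did not pass, and the 6-week ob/ob value was 0.32 without ob/ob replicate 1 and 1.04 without replicate 2. The lean KsJ arrays of 16 weeks held the 2 lowest Ndufa4l2 signals of all 16 arrays. They also had the lowest medians over all genes tested, 5.93 and 5.69, against 6.10 to 6.21 on the other arrays. With median centring or quantile normalization Ndufa4l2 was not called. Within lean KsJ islets the gene differed by -0.90 ± 0.27 between 16 and 6 weeks (adjusted p = 0.104, limma). In db/db islets its mean was 5.97 at 6 weeks and 5.49 at 16 weeks.

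**Figure D2:**
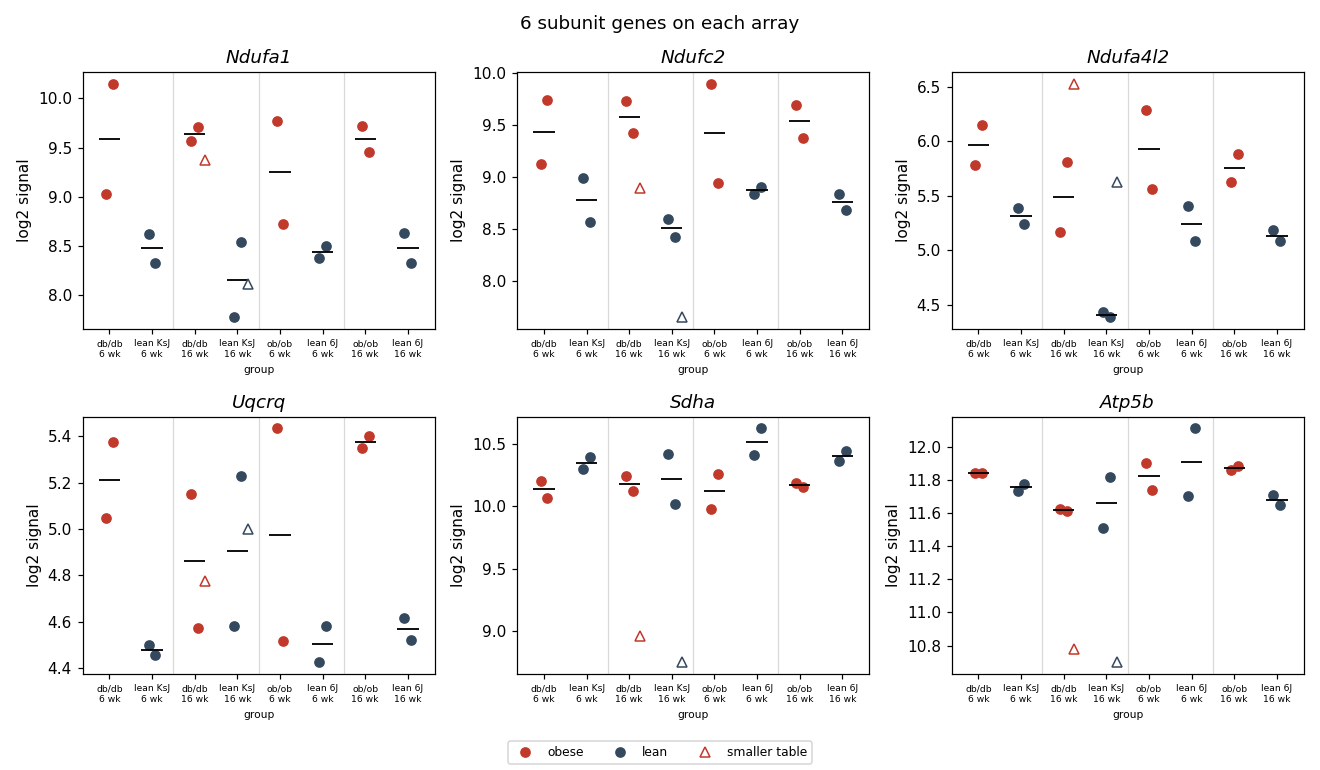
Log2 signal (vertical axis) of 6 subunit genes on each array, by group (horizontal axis), with obese groups in red left of their lean controls in dark blue, bars at the mean of the 2 arrays and open triangles for the smaller table, whose level is not comparable. Ndufa1, Ndufc2 and Ndufa4l2 lie higher on both obese arrays than on both lean arrays in every pair of groups, whereas Sdha lies lower or overlaps.

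The promoters of these genes were examined for motifs of factors known to drive respiratory genes, because members that shift together may share such letters. RefSeq windows of 300 bases (250 before to 50 after the start, GRCm38.p6) were found for 51 of the 61 genes, in 56 windows. Atp5a1, Atp5mpl, Ndufa2, Ndufa4l2, Ndufb9, Ndufs1, Sdhc, Uqcrb, Uqcrc2 and Uqcrq had no entry. Motifs were searched on both strands and no match overlapped a match of another motif. The NRF1 motif GCGCATGC stood in 9 windows (16.1%, against 2.71% of all 32851 windows). The YY1 motif AAGATGGC stood in 9 windows (16.1%, against 2.75%). The ETS motif CCGGAAG, bound by GABPA among others, stood in 14 windows (25%, against 8.86%), and the motif AAGGTCA of the oestrogen-related receptors (ERR) in 6 (10.7%, against 4.72%). At least 1 of the 4 motifs was present in 29 windows (51.8%, against 17.6% of all windows and 20.3% of those of protein-coding genes). Genes with and without any of them had nearly the same median change in 16-week ob/ob islets, 0.32 and 0.35.

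Windows are shown for Ndufa1 and Ndufc2, which had the most positive changes in 16-week db/db islets among genes with a window and held none of the 4 motifs, and for Atp5e and Uqcr11, which were among the genes of smallest p in 16-week ob/ob islets and each held 2. Capitals mark motif matches on either strand: in Atp5e an ETS motif at -102 and an ERR motif at 24, and in Uqcr11 an ETS motif at -66 and an NRF1 motif at -4, counted from the start of the gene. Each window reads 5′ to 3′ along its gene's strand and lies at chrX:37191189-37191488 (minus strand) for Ndufa1, chr7:97399753-97400052 (plus strand) for Ndufc2, chr2:174464052-174464351 (minus strand) for Atp5e and chr10:80406772-80407071 (minus strand) for Uqcr11.
Ndufa1: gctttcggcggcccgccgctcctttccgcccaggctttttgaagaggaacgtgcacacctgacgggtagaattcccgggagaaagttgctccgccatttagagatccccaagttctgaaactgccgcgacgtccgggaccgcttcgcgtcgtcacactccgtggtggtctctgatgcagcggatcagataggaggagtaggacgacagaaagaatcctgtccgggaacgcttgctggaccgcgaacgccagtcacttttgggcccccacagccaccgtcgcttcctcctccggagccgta
Ndufc2: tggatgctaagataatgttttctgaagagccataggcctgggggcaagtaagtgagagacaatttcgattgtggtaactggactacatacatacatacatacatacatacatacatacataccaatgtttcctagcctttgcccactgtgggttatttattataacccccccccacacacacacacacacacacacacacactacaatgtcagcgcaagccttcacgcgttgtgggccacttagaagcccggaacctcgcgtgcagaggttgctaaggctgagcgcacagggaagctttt
Atp5e: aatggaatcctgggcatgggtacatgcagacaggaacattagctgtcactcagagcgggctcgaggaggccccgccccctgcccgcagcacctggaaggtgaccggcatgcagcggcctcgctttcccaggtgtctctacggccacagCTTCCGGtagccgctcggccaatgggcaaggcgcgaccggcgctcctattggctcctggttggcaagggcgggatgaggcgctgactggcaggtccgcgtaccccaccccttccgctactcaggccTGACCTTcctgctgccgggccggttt
Uqcr11: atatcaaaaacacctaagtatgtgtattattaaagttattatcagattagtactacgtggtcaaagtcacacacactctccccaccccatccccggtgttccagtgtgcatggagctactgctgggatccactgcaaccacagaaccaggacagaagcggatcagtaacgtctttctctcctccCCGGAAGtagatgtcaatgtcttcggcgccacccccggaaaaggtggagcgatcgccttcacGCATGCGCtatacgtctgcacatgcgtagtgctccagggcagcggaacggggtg

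In 16-week ob/ob islets, 45 subunit genes (73.8%) had both ob/ob arrays above both lean 6J arrays, as had 28.2% of all genes tested. In 2 genes (3.28%), Sdha and Ndufs5, both ob/ob arrays lay below, against 33.3% of all genes. By limma 0 subunit genes were called, and 0.0708% of all genes were. An unadjusted p below 0.05 was reached by 12 subunit genes, 11 higher and 1 lower, and by 16.6% of all genes. Of the 61 genes, 56 had a change above 0.

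By complex, most genes of each complex had a change above 0 in 16-week ob/ob islets. In complex II these were 3 of 4 genes, with a median of 0.18. In complex I, 27 of 31 genes had a change above 0, with a median of 0.36. Core subunits carry the flavin and iron-sulfur clusters, and 4 of 6 were above 0. Ndufs8 (0.51) and Ndufv1 (0.36), an iron-sulfur and the flavin-binding subunit, had both ob/ob arrays above both lean arrays, whereas Ndufs1 (-0.03) and Ndufs7 (-0.11) did not. Ndufs1 turned positive in 4 alternatives. The accessory subunit Ndufb7 was at 7.17 and 7.23 in ob/ob islets, against 6.53 and 6.75 in lean 6J islets (0.56). All 7 genes of complex III were above 0, with a median of 0.32. The small ubiquinone-binding subunit Uqcrq was at 5.35 and 5.40 in ob/ob islets, against 4.62 and 4.52 in lean 6J islets, a change of 0.81 ± 0.31 (adjusted p = 0.230, limma). Uqcr11, whose window is printed above, differed by 0.54 (0.28 without ob/ob replicate 2 and 0.79 without replicate 1), and the core protein gene Uqcrc2 by 0.14 (-0.03 with acinar and enterocyte covariates). None of these passed.

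In complex V, all 17 genes had a change above 0 in 16-week ob/ob islets, with a median of 0.34. In 11 of them both ob/ob arrays lay above both lean arrays, as in 28.2% of all genes tested. The catalytic alpha and beta subunits differed little, with Atp5a1 at 0.04 and Atp5b at 0.20. The central stalk, which turns inside the catalytic head, includes the products of Atp5c1, Atp5d and Atp5e. Atp5d was at 8.25 and 8.24 in ob/ob islets, against 7.53 and 7.39 in lean 6J islets (0.78), and at 0.18 with acinar and enterocyte covariates. Its second cluster gave 7.80 and 7.72 in ob/ob islets, against 7.36 and 7.45 in lean 6J islets (0.36). Atp5e was at 8.70 and 8.60 in ob/ob islets, against 7.78 and 7.92 in lean 6J islets, a change of 0.80 ± 0.31 (adjusted p = 0.239, limma). Atp5c1 differed by 0.35. Of the 3 genes for the c subunit, whose ring turns with the stalk, Atp5g1 had the most positive change (0.85 ± 0.40), but its arrays overlapped, at 4.31 and 5.47 in ob/ob islets, against 3.58 and 4.50 in lean 6J islets. Atp5g2 differed by 0.30. The 3 c genes encode the same mature protein and many subunit genes have processed pseudogene copies. Whether probes read such copies was not tested.

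Like complex I, complex II, the succinate dehydrogenase of the citric acid cycle, had changes of both signs in 16-week ob/ob islets. Its flavoprotein gene Sdha was at 10.19 and 10.16 in ob/ob islets of 16 weeks, against 10.37 and 10.45 in lean 6J islets, and at 9.98 and 10.26 in ob/ob islets of 6 weeks, against 10.41 and 10.63 in lean 6J islets. In db/db islets it was at 10.21 and 10.07 at 6 weeks, against 10.31 and 10.40 in lean KsJ islets. At 16 weeks the groups overlapped, with 10.24 and 10.12 in db/db islets, against 10.42 and 10.02 in lean KsJ islets. The changes were -0.24 ± 0.18 in 16-week ob/ob, -0.40 ± 0.18 in 6-week ob/ob and -0.21 ± 0.18 in 6-week db/db islets, all with both obese arrays below both lean arrays, and -0.04 ± 0.18 in 16-week db/db islets. None passed, the lowest adjusted p being 0.557. In 16-week ob/ob islets the iron-sulfur subunit Sdhb (0.31) and the membrane anchor Sdhc (0.35) had changes above 0, and the anchor Sdhd was at 0.05, with the other sign without lean 6J replicate 1 (-0.01) or with acinar and enterocyte covariates (-0.10).

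Acinar signal differed in the same direction in this comparison, at 10.57 and 10.05 in ob/ob islets of 16 weeks, against 9.34 and 8.67 in lean 6J islets. Enterocyte means were 4.79 and 4.96 in ob/ob islets, against 4.58 in both lean arrays. With both means as covariates the median change of the subunits was 0.13, against 0.34 without them. Endothelial means also lay higher, at 8.80 and 8.88 on the ob/ob arrays, against 8.44 and 8.59 on the lean 6J arrays. Means of the hormone cell lists lay lower on the ob/ob arrays. Beta cell means were 11.09 and 11.12, against 11.29 and 11.31. Alpha cell means were 10.61 and 10.86, against 11.38 and 11.36, and delta cell means 8.95 and 8.96, against 9.54 and 9.43. Within the beta cell list Slc2a2, Mafa, Ucn3, Pdx1 and Nkx6-1 lay below both lean arrays and G6pc2 overlapped. Ins2 lay above, at 12.15 and 12.14, against 11.91 and 12.01, as did Iapp, at 12.74 on both ob/ob arrays, against 12.49 and 12.46. The part of these cell types in the shift was not tested beyond the acinar and enterocyte covariates. With each array of the 2 groups left out in turn the median stayed between 0.30 and 0.37. With array weights 14 subunit genes were called (23.0%, against 19.1% of all genes), and in the compared groups alone 5 (8.20%, against 8.33% of all genes), of which Ndufs5 was lower and the other 4 higher. The 2 ob/ob arrays differed from each other by a median of 0.01 over the subunits and the 2 lean arrays by -0.05.

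**Figure D3:**
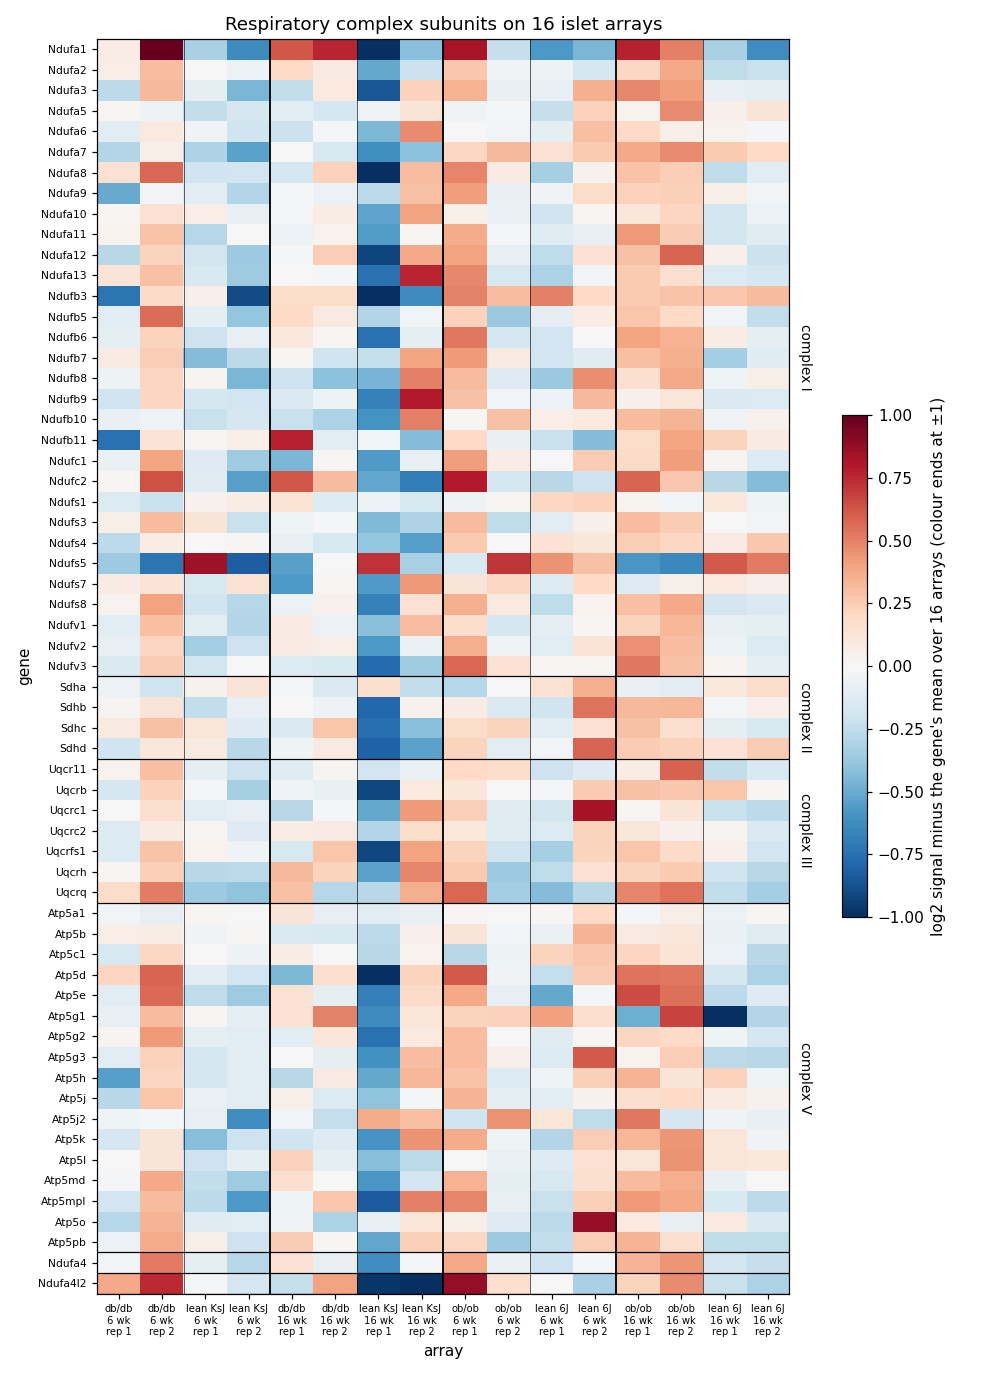
Log2 signal of each of the 61 subunit genes (rows, by complex) on each of the 16 arrays (columns, each obese group left of its lean control), minus the gene's mean over all arrays, with the colour scale ending at -1 and 1. The 16-week ob/ob columns are mostly red, single arrays such as lean KsJ 16-week replicate 1 are mostly blue, and Sdha and Ndufs5 run against the other rows.

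In db/db islets of 6 weeks, 53 of 61 subunit genes had a change above 0, and 30 (49.2%) had both db/db arrays above both lean KsJ arrays, as had 21.9% of all genes tested. Both db/db arrays lay below in 3 genes, Atp5a1, Ndufs1 and Sdha (4.92%, against 27.9% of all genes). By limma 0 subunit genes were called, against 0.0258% of all genes, and 5 had an unadjusted p below 0.05, against 8.52% of all genes. These 5 were Ndufa1, Ndufa4l2, Uqcrq, Ndufb7 and Atp5md. Uqcrq was at 5.05 and 5.37 in db/db islets, against 4.50 and 4.46 in lean KsJ islets (0.73 ± 0.31, adjusted p = 0.573). Atp5md, a small membrane subunit of complex V, was at 10.98 and 11.37 in db/db islets, against 10.75 and 10.64 in lean KsJ islets (0.48). Ndufb7 (0.51), Ndufs8 (0.46) and Ndufa4 (0.44) lay in the same direction without overlap. Without replicate 2 of db/db the change of Ndufa4 was 0.16, that of Ndufs8 0.28 and that of Atp5md 0.29. Ndufs1 was at 7.65 and 7.57 in db/db islets, against 7.83 and 7.87 in lean KsJ islets (-0.24). The db/db arrays were not alike: the subunit median was 7.93 on replicate 1 and 8.43 on replicate 2, with 56 of 61 genes higher on replicate 2. Without replicate 2 the median change was 0.09, and without replicate 1 it was 0.39. The acinar mean was 9.27 and 10.89 on these db/db arrays, in the same order as the subunits, against 11.57 and 10.07 in lean KsJ islets. Endothelial means were 9.11 and 9.05 on the db/db arrays, against 8.80 and 8.66 on the lean arrays, and enterocyte means 5.58 and 4.72, against 4.36 and 4.51, both without overlap. Their part in the changes was not tested beyond the fits with acinar and enterocyte covariates.

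In db/db islets of 16 weeks, the subunit genes did not stand out from the other genes. Both db/db arrays lay above both lean KsJ arrays in 17 genes (27.9%), against 32.8% of all genes, and below in Atp5j2 and Ndufa5 (3.28%), against 10.4%. Ndufa4l2 was the 1 gene called, when 5.80% of all genes were. Of the subunits, 9 reached an unadjusted p below 0.05, all higher, against 24.5% of all genes. Besides Ndufa1, Ndufc2, Ndufa2 and Ndufa4l2 they were Ndufb3, Sdhc, Sdhd, Ndufa7 and Atp5l. Both membrane anchors of complex II were in this group. Sdhc was at 8.51 and 8.93 in db/db islets, against 7.90 and 8.24 in lean KsJ islets, a change of 0.65 ± 0.20 (adjusted p = 0.0759, limma). Sdhd was at 8.99 and 9.12 in db/db islets, against 8.22 and 8.49 in lean KsJ islets, a change of 0.70 ± 0.23 (adjusted p = 0.101). At 6 weeks the changes of Sdhc and Sdhd were 0.20 and 0.05. Ndufb3, an accessory subunit, was at 5.38 on both db/db arrays, against 4.20 and 4.56 on the lean arrays, a change of 0.998 ± 0.327 (adjusted p = 0.0959).

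Markers of other cells differed between these groups as well. The mean of the stellate and matrix genes was 5.71 and 7.27 in db/db islets, against 4.26 and 4.87 in lean KsJ islets, and that of the macrophage genes 6.67 and 6.47, against 5.74 and 5.09. The endothelial mean was 8.35 and 8.80 in db/db islets, against 8.11 and 7.38 in lean KsJ islets, and the enterocyte mean 6.85 and 9.44, against 4.49 and 6.34. For these 4 lists both db/db arrays lay above both lean arrays. The acinar mean overlapped, at 11.20 and 12.12 in db/db islets, against 10.70 and 13.15 in lean KsJ islets. Their part in the changes of the subunit genes was not tested beyond the fits with acinar and enterocyte covariates.

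The spread within lean KsJ islets of 16 weeks limited this comparison. The subunit median was 7.52 on lean replicate 1 and 8.24 on the acinar-rich lean replicate 2, with 53 of 61 genes higher on replicate 2, while both db/db arrays were at 8.01. Lean replicates 1 and 2 also differed in Xist (3.24 and 8.90) and Uty (7.86 and 2.49). The part of acinar content and of sex in the gap between these lean arrays was not tested. The median change of the subunits was -0.11 without lean replicate 1 and 0.55 without lean replicate 2. Ndufb8 (-0.33), Ndufb10 (-0.22), Ndufb7 (-0.17) and Uqcrq (-0.04) had the other sign without lean replicate 2, at 0.16, 0.33, 0.15 and 0.28. Ndufb8, for example, was at 6.32 and 6.12 in db/db islets, against 6.06 and 7.03 in lean KsJ islets. Without lean replicate 1, 5 subunit genes were called (8.20%, against 30.2% of all genes), Ndufa4l2 and Ndufc2 higher and Ndufa13, Ndufb9 and Ndufb10 lower. Over all genes tested both lean arrays had lower medians, 5.93 and 5.69, than any other array. With median centring of the arrays the subunit median was -0.08, and with quantile normalization it was 0.02.

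**Figure D4:**
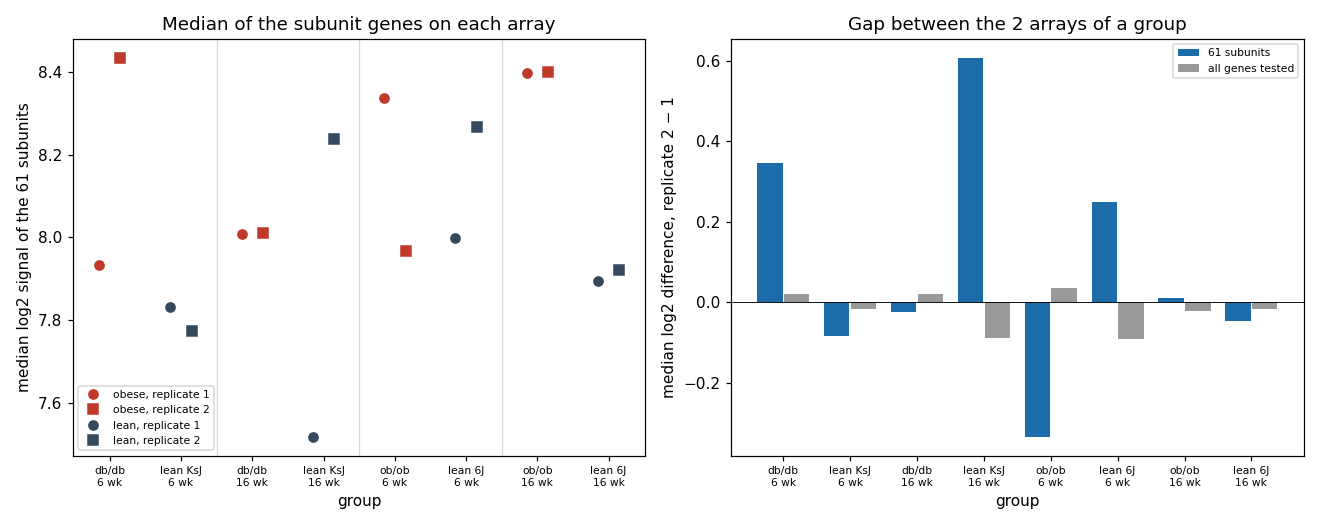
Left, median log2 signal of the 61 subunit genes on each array (vertical axis) by group (horizontal axis), circles for replicate 1 and squares for replicate 2. Right, median difference between the 2 arrays of each group over the subunits (blue) and all genes tested (grey): it reached 0.61 in lean KsJ islets of 16 weeks and was near 0 in both 16-week 6J groups.

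In ob/ob islets of 6 weeks, 12 subunit genes (19.7%) had both ob/ob arrays above both lean 6J arrays, against 19.9% of all genes, and 4 had both below (6.56%, against 16.8%). Those below were Sdha, Ndufs1, Atp5a1 and the central stalk gene Atp5c1. By limma 0 subunit genes and 0 genes in all (0%) were called, and 3 subunit genes had an unadjusted p below 0.05, against 6.15% of all genes. These were Ndufa4l2, Sdha and Atp5c1, which was at 4.57 and 4.79 in ob/ob islets, against 5.06 and 5.11 in lean 6J islets (-0.41 ± 0.18, adjusted p = 0.791). The subunit median was 8.34 and 7.97 on the ob/ob arrays, against 7.999 and 8.266 on the lean arrays, so the groups overlapped. The beta cell mean was 10.94 and 11.35 on the ob/ob arrays, against 11.36 and 11.21 on the lean arrays, and Slc2a2 11.40 and 12.70, against 12.86 and 12.71. The other beta cell genes overlapped, Ins2 for example at 12.20 and 11.97, against 12.04 and 12.01. The acinar mean was 10.19 and 9.62, against 9.90 and 8.10, and Xist 3.48 and 2.80, against 4.27 and 9.46. Their part in the changes was not tested beyond the fits with acinar, enterocyte and Xist covariates. Without the enterocyte-rich lean 6J replicate 2, Uqcrc1 and Atp5o stood at 0.24 each, against -0.27 and -0.34 with all arrays. Uqcrc1 was at 9.87 and 9.51 in ob/ob islets, against 9.44 and 10.46 in lean 6J islets.

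The difference between the models was tested directly, as the db/db change minus the ob/ob change at the same age. At 16 weeks its median over the subunits was -0.14, against 0.25 for all genes. By limma 0 subunit genes were called (0.0129% of all genes), and 2 had an unadjusted p below 0.05 (15.6% of all genes). Ndufb3 differed by 1.02, with 0.998 in db/db and -0.02 in ob/ob islets, and Ndufb7 by -0.73, with -0.17 and 0.56. Their unadjusted p were 0.0495 and 0.0364. At 6 weeks the median difference was 0.13 (0.0017 without lean 6J replicate 2 and 0.33 without db/db replicate 1), against -0.04 for all genes, with 0 subunits and 0% of all genes called and 0 subunits at an unadjusted p below 0.05 (2.25% of all genes).

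The change of each model's effect with age was likewise tested as 16 weeks minus 6 weeks. For ob/ob it was above 0 in 55 of 61 subunit genes, with a median of 0.22, against -0.04 for all genes. The median was 0.09 without lean 6J 6-week replicate 2 and 0.38 without ob/ob 6-week replicate 1. By limma 0 subunits and 0% of all genes were called, and 1 subunit had an unadjusted p below 0.05 (2.77% of all genes), Atp5c1 with 0.75. For db/db the median was 0.00, against 0.24 for all genes, with 0 subunits called (0.00644% of all genes) and 1 at an unadjusted p below 0.05, Ndufb7 (13.1% of all genes). The ob/ob median was -0.05 with acinar and enterocyte means as covariates. Both ob/ob arrays of 6 weeks were low in Xist (3.48 and 2.80) and both of 16 weeks high (8.62 and 8.60). Age and Xist thus cannot be told apart in ob/ob islets.

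Between ages within a group, 16 against 6 weeks, 0 subunit genes were called by limma in any of the 4 groups. The subunit median was -0.10 in db/db islets (all genes -0.01), 0.16 in ob/ob islets (all genes -0.01), -0.08 in lean KsJ islets (all genes -0.26) and -0.06 in lean 6J islets (all genes 0.04). Each of these medians turned its sign when 1 array was left out, as the db/db median did without db/db 6-week replicate 2 (0.08) and the ob/ob median without ob/ob 6-week replicate 2 (-0.02). Xist was 3.48 and 2.80 in ob/ob islets of 6 weeks, against 8.62 and 8.60 in those of 16 weeks. Age and Xist thus cannot be told apart in ob/ob islets, and with Xist as a covariate the ob/ob median was -0.0596. Of all genes, 0.0644% were called in db/db islets and 0% in each of the other 3 groups. In db/db and in ob/ob islets 0 subunits had an unadjusted p below 0.05, against 7.61% and 3.90% of all genes. In lean KsJ islets 5 had one, against 26.3% of all genes, of which Sdhc (-0.58), Sdhd (-0.58), Ndufs4 (-0.47) and Ndufa4l2 (-0.90) were lower at 16 weeks and the dim Atp5j2 was higher. In lean 6J islets 2 had one, against 2.87% of all genes, Atp5g1 (-1.05) and Atp5c1.

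The pair of arrays in the smaller table added 1 db/db and 1 lean KsJ reading at 16 weeks and therefore no test. Of the 61 subunits 41 were higher on the db/db array, with a median difference of 0.12, against 0.09 and 56.6% higher over all genes. Ndufa1 (9.38 on the db/db array, against 8.11 on the lean array) and Ndufc2 (8.89 against 7.65) differed by more than 1, at 1.26 and 1.24, as did 5.98% of all genes in that direction. Ndufa4l2 was at 6.53 on the db/db array, against 5.63 on the lean array (0.90). Sdhc (0.63) and Sdhd (0.80) also lay higher, and Ndufb3 by 0.23. The enterocyte mean of this pair was 9.85 on the db/db array, against 4.58 on the lean array, the stellate and matrix mean 7.67 against 6.51, the endothelial mean 8.31 against 7.45 and the acinar mean 12.28 against 13.11. Their part in these differences was not tested. The most negative difference was that of Ndufb7, at -0.60. Whether this pair held RNA of other mice than the larger table is not stated in the labels.

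Genes that build or feed the complexes were taken from lists of the same pathway. In 16-week db/db islets, where all of the following calls were made, 5.80% of all genes were called, so that 1 or 2 calls in lists of 11 to 15 genes are near that share and nothing is read from them. The calls in these lists were not followed through the alternative settings, in several of which the call of Ndufa4l2 was lost. Of 15 complex I assembly factors measured, 1 rose in 16-week db/db islets, Ndufaf7, a methyltransferase needed for complex I assembly, by 0.87 ± 0.21 (adjusted p = 0.0404, limma). Of 14 assembly factors of complexes II, III and V, 0 were called in any of the 4 comparisons, with medians of -0.06 and 0.34 in db/db islets of 6 and 16 weeks (6 and 12 of 14 above 0), and 0.23 and 0.17 in ob/ob islets of 6 and 16 weeks (11 and 14 of 14 above 0). Of 14 tested complex IV subunits, Cox5b rose by 1.04 ± 0.22 (adjusted p = 0.0288) and Cox6a2, the heart and muscle isoform of subunit 6a, fell by 3.05 ± 0.47 on the log2 scale (adjusted p = 0.0136), both in 16-week db/db islets. Cox6a2 was at 7.04 and 6.71 in these db/db islets, against 10.25 and 9.60 in lean KsJ islets. The ob/ob arrays of 16 weeks gave 8.46 and 8.44, against 9.89 and 9.31 on the lean 6J arrays. The change of Cox6a2 in 16-week db/db islets thus lay far below the most negative change of the 61 subunits there (-0.47). Its change in 16-week ob/ob islets, -1.15, lay just above that of the dim Ndufs5 (-1.18). It lay far below that of Sdha (-0.24), the next lowest subunit. Of 11 electron and nucleotide carriers Slc25a4, the ADP/ATP translocase of muscle and heart, rose by 0.85 ± 0.16 (adjusted p = 0.0197), and of 12 citric acid cycle enzymes fumarase (Fh1) rose by 0.65 ± 0.17 (adjusted p = 0.0455), again in 16-week db/db islets. None of 11 regulators of mitochondrial biogenesis and none of 71 mitochondrial ribosomal protein genes was called in the 4 comparisons. The ribosomal protein genes had medians of 0.12 and 0.21 in db/db islets of 6 and 16 weeks, and 0.16 and 0.23 in ob/ob islets of 6 and 16 weeks.

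For 7 subunit genes a second, dimmer cluster was on the array. In 16-week ob/ob islets it differed by 0.35 for Atp5e, against 0.80 in the first cluster, and by 0.36 for Atp5d, against 0.78. For Atp5g2, Ndufa8 and Ndufa12 it gave 0.26, 0.44 and 0.60, against 0.30, 0.45 and 0.52 in the first clusters, which stood at -0.0023, 0.0005 and 0.08 with acinar and enterocyte covariates. For Ndufa11 it overlapped, with 5.13 and 5.62 on the ob/ob arrays, against 5.10 and 5.45 on the lean 6J arrays. The clusters of Atp5h were far apart in level, with means of 10.01 and 3.73, and ran in opposite directions: the dim one gave 3.69 and 3.34 on the ob/ob arrays, against 3.94 and 3.76 on the lean 6J arrays (-0.33), and the bright one differed by 0.14. The bright one stood at -0.24 with acinar and enterocyte covariates. Ndufs5, at a mean of 3.03, and Atp5j2, at 3.42, lay within 1 log2 unit of the limit for dim genes of 2.99, so no fold is given for them. Ndufs5 was at 2.45 and 2.39 in ob/ob islets of 16 weeks, against 3.65 and 3.55 in lean 6J islets.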

How the data were processed

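The authors deposited log2 signals for 41034 transcript clusters in each table. MAS5, RMA and Partek appear in the submitters' processing notes, with no order or version. How background was corrected, and whether both tables were normalized together, is not given in the sources used here. Of the clusters, the annotation gave 1 gene for 23521, several for 1814 and none for 15699, and symbols were updated with the GRCm38.p6 table. Genes with a mean under the 30th percentile, 2.99, were not tested. A model with 1 mean for each group was fitted to the 16 arrays (8 residual degrees of freedom) with limma 3.58.1 (R 4.3.3), followed by eBayes and two-sided, Benjamini-Hochberg adjusted p-values. The script was tested on simulated data. Tests used the larger table alone.

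The members and gene lists were chosen with earlier results of these data known. Genes named are called members, the 4 most positive and 4 most negative changes per comparison and a fixed set of catalytic, stalk and paralogue subunits. Others were named after their values were seen, among them Ndufa2, Ndufb7, Uqcr11, Atp5d and Atp5md. Atpif1, in the fixed set, does not match the symbols and was not used. The closing section gives the alternatives tried. Plots used matplotlib 3.10.9 (Python 3.11.15).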

Additional observations from a re-analysis of the deposited data

How the results depend on the processing

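No paired analysis was possible because replicate numbers were given in accession order and pair no samples. Of 74 printed changes of subunit genes that were followed over 29 alternatives, 58 kept 1 sign. The printed changes of Ndufs5, of second clusters and of the pathway lists were not among the 74. With 1 array left out, 36 of the 74 moved by over 1.5 times. In 16-week db/db islets the count of called subunits, 1 in the fit reported, was 0 with no filter, quantile normalization, median centring, unmoderated variances, array weights, the compared groups alone, or without the 3 arrays rich in acinar or enterocyte genes (lean KsJ 16-week, lean 6J 6-week and db/db 16-week replicate 2). It was 4 with a filter at the 50th percentile or with trend and robust eBayes, 6 with both tables joined and 3 with acinar and enterocyte covariates, and from 0 to 5 with 1 array left out. Among fits with 1 array left out, the count was highest without lean KsJ 16-week replicate 1, as were the other counts that moved. These ran from 0 to 4 in the difference between models at 16 weeks and in the age change of the db/db effect, and from 0 to 9 between ages in lean KsJ islets. In 16-week ob/ob islets it was 14 with array weights and 5 in the compared groups alone. The cause of these shifts was not tested.

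The median change of the subunits in 16-week ob/ob islets was 0.38 with quantile normalization, 0.39 with centring, 0.32 with the mean over clusters, 0.13 with acinar and enterocyte covariates, 0.38 with an Xist covariate and 0.30 to 0.37 with 1 array left out. In 16-week db/db islets it ran from -0.11 to 0.55 with 1 array left out. The difference between models at 16 weeks had medians of -0.42 with quantile normalization, -0.53 with centring, 0.18 without the 3 arrays, and -0.50 to 0.19 with 1 array left out. The age change of the db/db effect had -0.37 with centring and -0.34 to 0.30 with 1 array left out, and that of the ob/ob effect -0.047 with acinar and enterocyte covariates. Between ages the median was -0.51 in db/db and 0.13 in lean 6J islets with these covariates, -0.0596 in ob/ob islets with Xist and 0.28 in lean KsJ islets with centring. With 1 array left out it ran from -0.19 to 0.0198 in lean 6J and from -0.39 to 0.21 in lean KsJ islets.

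Some changes turned their sign. Without the 3 arrays, 16-week db/db values were 0.57 for Uqcrq, 0.26 for Ndufb8, 0.38 for Ndufb10 and 0.25 for Ndufb7, and 6-week ob/ob values 0.24 for both Atp5o and Uqcrc1. With 1 array left out, 16-week db/db values ran from -0.36 to 0.28 for Uqcrq, -0.24 to 0.16 for Sdha, -0.81 to 0.16 for Ndufb8, -0.77 to 0.33 for Ndufb10 and -0.49 to 0.15 for Ndufb7, with both ends set by the lean KsJ arrays. In 6-week db/db islets they ran from -0.78 to 0.10 for Ndufb11 and from -0.13 to 0.24 for Sdhd. In 6-week ob/ob islets they ran from -0.91 to 0.24 for Atp5o and -0.78 to 0.24 for Uqcrc1, both ends set by the lean 6J arrays, and in 16-week ob/ob islets from -0.10 to 0.0396 for Ndufs1, -0.0122 to 0.10 for Sdhd, -0.0006 to 0.28 for Atp5h and -0.042 to 0.0025 for Ndufb3. With acinar and enterocyte covariates Atp5o was at 0.0473 and Uqcrc1 at 0.20 in 6-week ob/ob islets, and Ndufs1 at 0.0345, Uqcrc2 at -0.0304, Atp5g2 at -0.0023, Atp5h at -0.24 and Sdhd at -0.10 in 16-week ob/ob islets. With Xist, Uqcrc1 was at 0.11 in 6-week ob/ob and Sdhd at -0.0016 in 6-week db/db islets. Quantile normalization gave 0.0485 for Ndufs1, 0.0392 for Ndufb3 and -0.14 for Atp5a1, and centring 0.0198 for Ndufs1 and 0.0315 for Ndufb3, in 16-week ob/ob islets. The mean over clusters gave -0.0973 for Atp5h in 16-week ob/ob islets. With both tables joined, Sdha was at 0.0439 in 16-week db/db islets.

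With 2 arrays a group, differences of the size seen in most subunits could not be told from the spread pooled over the 8 groups. That spread was unequal. The median gap between the 2 arrays of a group was 0.61 over the subunits in lean KsJ islets of 16 weeks. It was 0.01 in ob/ob and -0.05 in lean 6J islets of 16 weeks. Dim clusters such as those of Ndufs5 and Atp5j2 add noise of their own. The arrays give no depth, so only their number and the signal over the dim limit bound the precision.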
